A study of Mus musculus with 6 samples.

Results

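Aldh3a1, Tkt, Upk1b and Clu, 4 genes chosen because their proteins are abundant in corneal epithelium, were followed among the 17866 protein-coding genes of a bulk RNA-seq table. They were found by gene symbol, and all 4 had enough reads for a test. The libraries came from corneal epithelium of C57BL/6 mice at 6 months of age, 3 labelled WT and 3 labelled Rela-/- (KO below). According to the methods, the KO mice were Krt14-Cre; Rela f/f, so that Rela, the gene of the NF-κB subunit p65, was deleted wherever the Krt14 promoter had driven Cre, which includes limbus, conjunctiva and skin as well as cornea. Whether the WT mice carried a floxed allele or Cre is not given. The epithelial layer was separated for sequencing, with each library from an independent biological sample. Teasing it off the stroma after EDTA is described in the methods for quantitative PCR.

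Crystallins were first known as the soluble proteins that fill the lens, and many are ordinary enzymes that one tissue makes in very large amounts. The corneal epithelium does the same with its own set. In the mouse, ALDH3A1, an aldehyde dehydrogenase that clears aldehydes made by ultraviolet light and lipid oxidation, and transketolase (TKT), an enzyme of the non-oxidative branch of the pentose phosphate pathway, are the best known corneal crystallins. UPK1B, or uroplakin 1B, is a tetraspanin of the apical membrane of bladder urothelium that is also made by ocular surface epithelium. Clusterin (CLU) is a secreted chaperone that keeps unfolded proteins in solution and is found on the ocular surface and in tears.

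The 3 genes Aldh3a1, Tkt and Upk1b were lower in KO, whereas Clu did not pass the test and its groups overlapped. Tkt fell the furthest, to 12.2% of its WT level, followed by Aldh3a1, of which 19.3% was left, and Upk1b, of which 37.6% was left. These levels are normalized counts, in CPM, reads scaled to a common library size with TMM factors. Over all 13305 genes tested, 62.0% passed an adjusted p of 0.05 in either direction with 30.2% lower and 31.8% higher in KO, so that passing alone did not set the 3 genes apart. Their size did differ from most. A log2 fold change at or below that of Upk1b was found in 6.21% of the tested genes, at or below that of Aldh3a1 in 1.83%, and at or below that of Tkt in 0.962%. The same 3 genes met a stricter threshold that also asked for a 2-fold change (adjusted p up to 0.001). Of all tested genes 19.8% met it, 8.24% lower and 11.6% higher in KO. The median log2 fold change of the 4 genes was -1.89, and that of all tested genes was 0.0063. In bulk RNA, fewer cells of a type and less RNA per cell cannot be told apart.

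Some facts of the whole series touch these values. Library totals lay between 20158404 and 20880347 estimated counts and TMM factors between 0.952 and 1.05. Rela itself had between 1844 and 1871 counts in WT and between 223 and 318 in KO, which goes with the labels. Among markers of corneal epithelium, Krt12, Pax6, Krt5 and Slurp1 were lower in KO and Krt14 was higher, and the summed level of the 6 markers went from between 81250 and 89447 TPM (a level per transcript length, scaled to the same sum in every library) in WT to between 27917 and 32625 TPM in KO. Markers of other epithelia moved with the genotype. All 5 epidermal markers were higher in KO, with a sum of 14.3 to 20.8 TPM in WT and 14000.1 to 21939 TPM in KO, and so were all 6 markers of conjunctiva and goblet cells, with 2694 to 3836 TPM in WT and 50804 to 66776 TPM in KO. Keratocyte markers summed to 0.83 to 2.15 TPM in WT and 10.04 to 18.8 TPM in KO, with 4 of the 5 higher and Lum at 0 in WT. Of the vessel markers 1 was higher, with sums of 0.73 to 1.00 TPM and 1.04 to 1.55 TPM and Kdr at 0 in WT. Leukocyte markers summed to 170.0 to 187 TPM in WT and 103 to 131 TPM in KO, with 2 higher and 1 lower. Most of that sum was Itgam, which was lower (124 and 64.5 TPM on average), and Cd68, which did not pass (53.2 and 44.5 TPM). Ptprc (0.183 and 1.85 TPM) and Csf1r (0.343 and 3.53 TPM) were higher in KO, so the sum does not follow each marker. Lens fibre markers summed to 4.86 to 6.53 TPM in WT and 7.03 to 7.53 TPM in KO, with 2 higher. The part of these cell types in the results below was not tested. Single libraries stood apart too. WT replicate 2 had 25395 Krt14 counts beside 5207 and 6712 in the other WT libraries, and KO replicate 1 had 203120 Krt1 counts beside 55117 and 101697. Without WT replicate 2 the log2 fold changes of Aldh3a1, Tkt and Upk1b were -2.39, -3.03 and -1.51, and without KO replicate 1 they were -2.40, -2.98 and -1.26, all past the threshold.

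**Figure D1:**
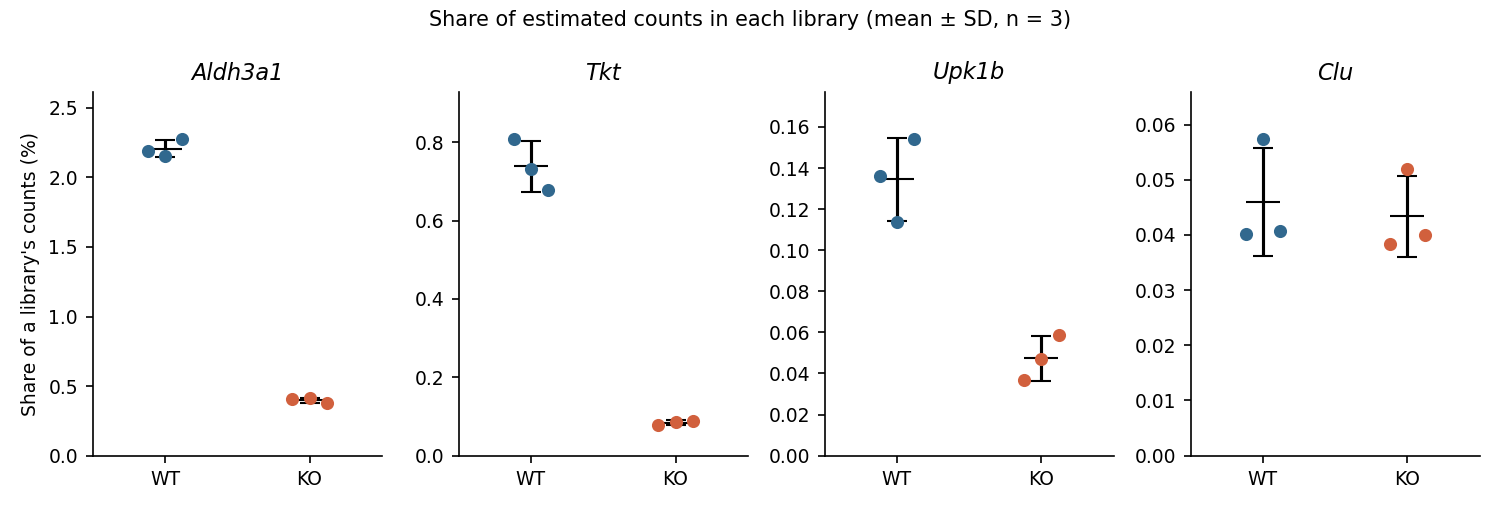
Share of a library's estimated counts (%, vertical axis from 0, a separate scale for each gene) taken by Aldh3a1, Tkt, Upk1b and Clu in the 3 WT and 3 KO libraries; points are libraries and bars are the mean ± SD. The KO points lie below every WT point for Aldh3a1, Tkt and Upk1b, while the points of Clu interleave.

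Aldh3a1 (gene 11670, on the plus strand of chromosome 11 from 61208510 to 61218418 in GRCm38) was read 453473, 447757 and 474345 times in WT. In KO it was read 83883, 83248 and 78570 times. The groups did not overlap, and each group was tight, with the highest library 1.08-fold above the lowest in normalized count in WT and 1.09-fold in KO. As a share of all counts of a library, this was 2.19% (95% Wilson interval 2.18 to 2.19), 2.15% (2.15 to 2.16) and 2.27% (2.27 to 2.28) in WT. In KO the share was 0.404% (0.402 to 0.407), 0.413% (0.410 to 0.416) and 0.376% (0.374 to 0.379). Such intervals take in counting error within a single library alone. PCR duplicates could not be separated from independent molecules, so even that error may be understated.

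The normalized count of Aldh3a1 averaged 21354 ± 958 CPM over the WT libraries. Over the KO libraries it averaged 4113 ± 175 CPM (SD, n = 3 per group), a level 5.19-fold lower. On the log2 scale the difference was -2.38, with an SE of 0.125, a 95% interval of -2.66 to -2.09 and an adjusted p of 2.38e-06 (edgeR quasi-likelihood test). The difference was many times the spread between replicates, whose coefficient of variation was 4.49% in WT and 4.26% in KO. No other annotated gene overlaps Aldh3a1 in GENCODE M21, and its 6 estimated counts were whole numbers, so no reads had been divided between it and other genes.

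Tkt (gene 21881, on the plus strand of chromosome 14 from 30548150 to 30576251) gave 167235, 152181 and 141443 counts in WT. Its KO counts were 15983, 17463 and 18658. Every KO library lay below every WT library, by whatever margin, as was the case for 33.9% of all tested genes. The groups did not overlap, in either direction, in 68.6% of all tested genes. Its share of counts was 0.739% ± 0.0649 in WT, against 0.0843% ± 0.00647 in KO (SD, n = 3 per group). The normalized count fell from 7146 ± 485 to 872 ± 60.2 CPM, or 8.20-fold, and the log2 estimate was -3.04 (SE 0.129, 95% interval -3.33 to -2.74, adjusted p = 1.01e-06, edgeR). This was the lowest of the 4 values. The microRNA gene Mir3076 lies inside Tkt on the same strand, and the 6 counts of Tkt were whole numbers.

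Because Tkt had the largest change, the sequence before its RefSeq start is shown. Of the 4 genes, only Tkt matched an entry of the RefSeq promoter table (build GRCm38.p6). The window, chr14:30548881-30549130 on the plus strand, holds the 250 bases before the RefSeq start, and its end also lies within an exon of a non-coding Tkt transcript of GENCODE M21. The whole window lies inside the span of 1 Tkt transcript of GENCODE M21 and inside the gene bounds given above. It is thus not upstream of every annotated Tkt transcript. Capitals mark matches to the GC box, GGGCGG, on either strand.
Tkt: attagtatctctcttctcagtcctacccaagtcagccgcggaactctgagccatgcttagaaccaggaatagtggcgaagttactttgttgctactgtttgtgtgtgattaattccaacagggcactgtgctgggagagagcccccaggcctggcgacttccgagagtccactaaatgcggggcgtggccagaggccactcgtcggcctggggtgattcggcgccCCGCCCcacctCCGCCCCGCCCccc

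The window held 3 GC boxes, all read on the minus strand, of which 2 share a base and the last ends 4 bases before the start. Of 32851 promoter windows of this length, 32.7% held at least 1. A loose κB pattern was searched as GGG and CC with any 5 bases between them. It was found once, as GGGCGTGGCC 70 to 61 bases before the start, and 45.8% of all windows held one. Between GGG and CC this run differs from the putative NF-κB site that the paper gives for the Aldh1a1 promoter, so it matches the loose pattern only. That match overlaps the only match to GCGTG, the core of the xenobiotic response element, which 28.2% of windows held, and no TATAAA was found, beside 12.4% of windows. Both strands were searched for each motif, and a match is a run of letters and not a shown binding site.

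Upk1b (gene 22268, on the minus strand of chromosome 16 from 38773182 to 38800203) was counted 28167, 23612 and 32127 times in WT, and 7625, 9460 and 12238 times in KO. The groups did not overlap, but the spread was wider than for the crystallins, with the highest normalized count 1.38-fold above the lowest in WT and 1.58-fold in KO. Its share of counts was 0.134% ± 0.0202 in WT, against 0.0474% ± 0.0109 in KO (SD, n = 3 per group). The normalized count went from 1303 ± 212 CPM to 490.2 ± 113 CPM, and the fitted log2 change was -1.41 (SE 0.191, 95% interval -1.85 to -0.97, adjusted p = 3.16e-04, edgeR). WT replicate 2 was the lowest WT library, and KO replicate 3 the highest KO library. KO replicate 1 was the lowest of all, and without it the log2 fold change of Upk1b was -1.26 and still passed.

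Clu (gene 12759, on the plus strand of chromosome 14 from 65968483 to 65981548) was counted 8312, 11913 and 8492 times in WT, and 7972, 10452 and 8343 times in KO. All 3 KO libraries lay above the lowest WT library in normalized count, and in each group replicate 2 was the highest. The share of counts was 0.0460% ± 0.00976 in WT and 0.0434% ± 0.00735 in KO. The normalized count averaged 446 ± 94.6 CPM over WT libraries, against 448 ± 66.4 CPM over KO libraries (SD, n = 3 per group). The fitted log2 change was 0.0072 (edgeR, SE 0.169, adjusted p = 0.973), and its sign turned with the scaling, being -0.084 with library totals alone. The 95% interval ran from -0.38 to 0.39, or from 0.768-fold to 1.31-fold. Changes of Clu within these bounds were not excluded with 3 libraries a group. Counting error alone would give a coefficient of variation of 1.02% in WT against the 21.2% observed. Without WT replicate 2, the log2 fold change of Clu was 0.20 and still did not pass. Neither Upk1b nor Clu overlaps another annotated gene, and their counts were whole numbers in all 6 libraries.

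**Figure D2:**
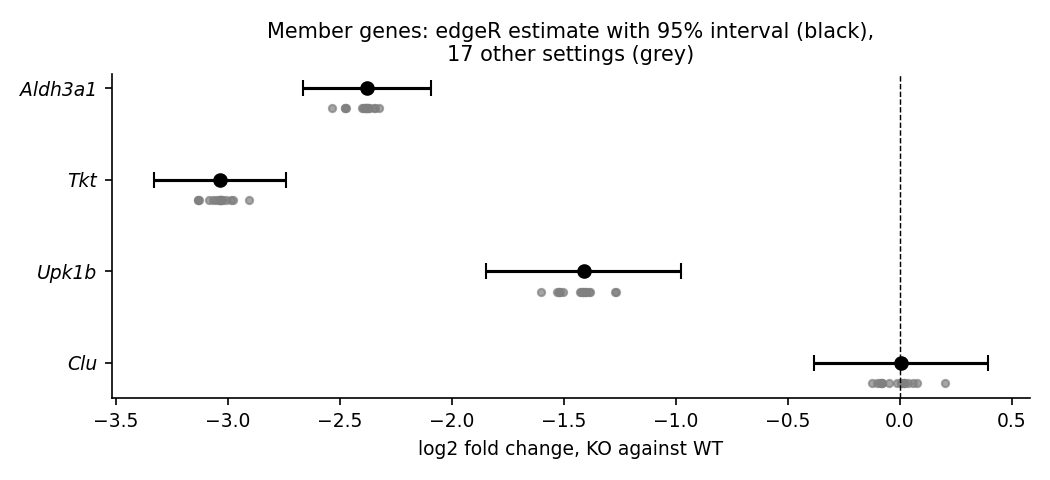
The log2 fold change (KO against WT, horizontal axis) of each gene, with the edgeR estimate and its 95% interval in black and the 17 other settings as grey points. The intervals of Aldh3a1, Tkt and Upk1b lie wholly below 0 under the main test, and that of Clu, from -0.38 to 0.39, spans 0.

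The shares of the 3 fallen genes were also compared by an exact permutation test over samples, which gave p = 0.1 two-sided for each of Aldh3a1, Tkt and Upk1b, the smallest value that 3 libraries against 3 allow, and p = 0.5 for Clu. Together, the 4 genes took 3.17% (95% Wilson interval 3.16 to 3.18), 3.06% (3.05 to 3.06) and 3.14% (3.14 to 3.15) of all counts in the WT libraries and 0.557% (0.553 to 0.560), 0.598% (0.595 to 0.602) and 0.564% (0.561 to 0.567) in the KO libraries. This was a mean of 3.12% ± 0.0600 against 0.573% ± 0.0223 (SD, n = 3 per group, two-sided exact permutation p = 0.1). On average 2.55 of every 100 counts of a WT library were thus no longer taken by these genes in KO.

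To compare the 4 genes with each other, levels per length were used. In WT the order by TPM was Aldh3a1, Tkt, Upk1b and Clu in each of the 3 libraries. Aldh3a1 stood at 29648 ± 473 TPM, Tkt at 4883 ± 526 TPM, Upk1b at 1631 ± 225 TPM and Clu at 554 ± 123 TPM (mean ± SD, n = 3), and no neighbours in this order overlapped. In KO only Aldh3a1 stood apart, at 4507 ± 241 TPM. The other 3 genes lay within one another's spread, with Upk1b at 484 ± 106 TPM, Tkt at 469 ± 29.0 TPM and Clu at 440.0 ± 70.5 TPM, and each of the 3 KO libraries gave a different order. Aldh3a1 held 80.8% ± 0.976 of the TPM of the 4 genes in WT, against 76.4% ± 2.72 in KO (3 libraries each, two-sided exact permutation p = 0.1).

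The place of these genes among all transcripts shows the same. By TPM, Aldh3a1 ranked 2, 2 and 3 among 17866 genes in the WT libraries, where Krt12, the keratin of corneal epithelium, was first, and 21, 21 and 25 in KO. Tkt ranked 14, 17 and 22 in WT and 277, 267 and 269 in KO. Upk1b went from ranks 66, 88 and 57 to ranks 318, 270 and 238. Clu ranked 243, 193 and 247 in WT and 306, 248 and 315 in KO. The KO level of Clu in TPM was 79.4% of that in WT although its CPM level was 100.5%, and the groups overlapped on both scales. This gap was not particular to Clu. Aldh3a1 stood at 15.2% by TPM and 19.3% by CPM, Tkt at 9.60% and 12.2%, and Upk1b at 29.7% and 37.6%. TPM values and log2 fold changes, which rest on scaled counts, can therefore differ in direction below.

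**Figure D3:**
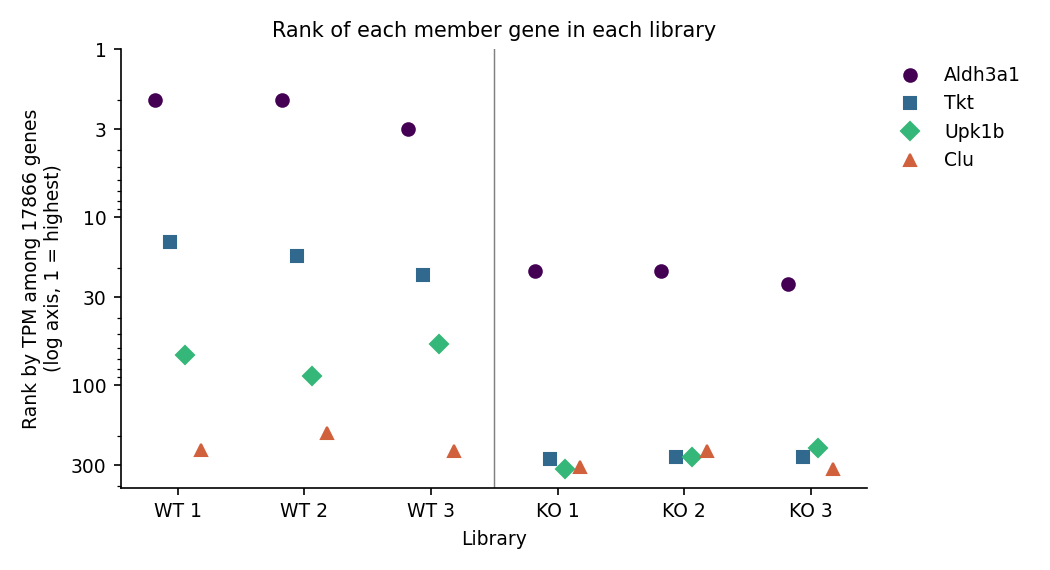
Rank of each gene by TPM (log axis, 1 is the highest of 17866 genes) in each of the 6 libraries, with points set slightly apart along the horizontal axis. In WT the 4 genes hold separate ranks, while in KO Tkt, Upk1b and Clu crowd between ranks 238 and 318.

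Ratios of 2 genes within a library do not depend on how libraries are scaled, and gene length cancels between groups. They were used to ask whether the 4 genes had changed by unequal amounts. The WT and KO libraries stood apart in all 6 pairs. These pairs come from 4 genes and are not independent, and those with Clu largely restate the falls given above. How often pairs of other genes stand apart was not worked out. The exact permutation p (two-sided) was 0.1 for each pair, the smallest possible value, and 0.1 after adjustment over the 6 pairs. The ratio of Aldh3a1 to Tkt counts was 2.71, 2.94 and 3.35 in WT and 5.25, 4.77 and 4.21 in KO, a rise of 0.66 on the log2 scale. The ratio of Aldh3a1 to Upk1b counts went the other way, from 16.1, 19.0 and 14.8 in WT to 11, 8.80 and 6.42 in KO. Tkt and Upk1b differed most among the genes that fell, with 5.94, 6.45 and 4.40 counts of Tkt for each count of Upk1b in WT and 2.10, 1.85 and 1.52 in KO. Against Clu, the counts of Tkt dropped from between 12.8 and 20.1 for each count to between 1.67 and 2.24, and those of Aldh3a1 from between 37.6 and 55.9 to between 7.96 and 10.5. The ratio of Upk1b to Clu ranged from 1.98 to 3.78 in WT and from 0.905 to 1.47 in KO, the narrowest gap of the comparisons with Clu.

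**Figure D4:**
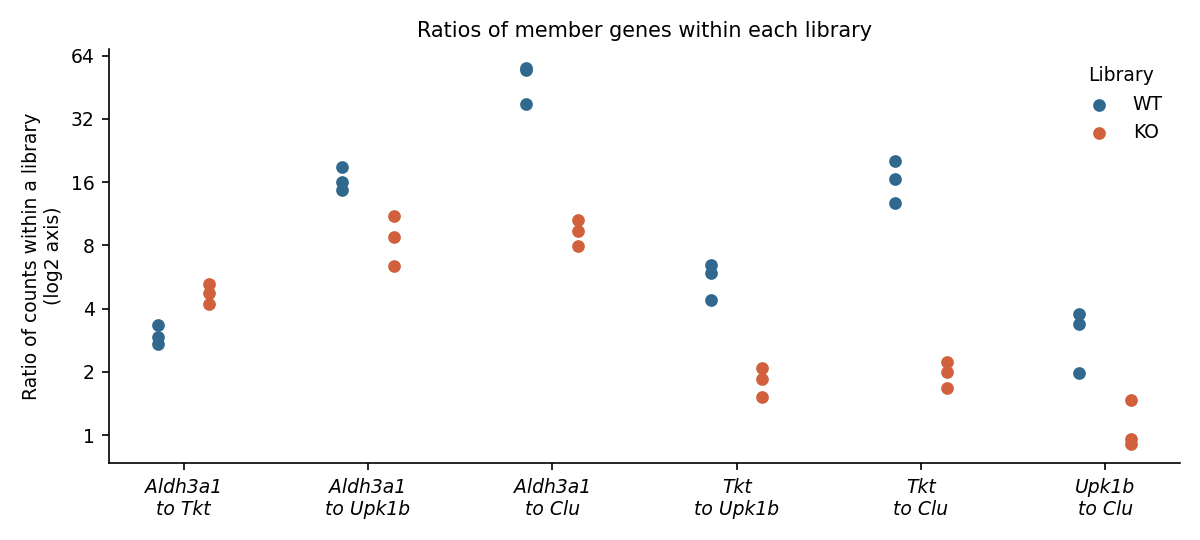
Ratio of the counts of 2 genes within each library (log2 axis) for the 6 pairs, with WT libraries in blue and KO libraries in orange. The WT and KO points do not overlap in any pair, and Aldh3a1 to Tkt is the pair whose ratio is higher in KO.

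The genes were then set beside the corneal genes Krt12, Pax6 and Slurp1, which were chosen here after their values had been seen. For each count of Krt12 there were 0.576, 0.552 and 0.628 counts of Aldh3a1 in WT and 0.765, 0.537 and 0.487 in KO, so that the groups overlapped and the mean log2 ratio differed by 0.0019. KO replicate 1 lay above the WT values and the other KO libraries below them, and its 109690 Krt12 counts were the fewest, beside 154911 and 161317. Tkt did not keep step with Krt12, with 0.212, 0.188 and 0.187 counts for each Krt12 count in WT and 0.146, 0.113 and 0.116 in KO. Against Pax6, a transcription factor of eye development, Aldh3a1 went from between 28.3 and 31.3 counts for each Pax6 count in WT to between 15.7 and 17.5 in KO, without overlap. Upk1b was higher in KO relative to Krt12 (1.94-fold) and to Slurp1 (1.44-fold), in both cases without overlap, whereas it overlapped between the groups relative to Pax6, at 1.76, 1.49 and 2.12 in WT and 1.43, 1.99 and 2.50 in KO. Relative to Slurp1, Tkt stood at 0.473 of the WT ratio, without overlap, and relative to Pax6 Tkt stood at 0.355. Aldh3a1 stood at 0.747 of its WT ratio to Slurp1, with 13.67, 15.05 and 14.13 in WT and 13.36, 13.65 and 6.64 in KO. These groups only just failed to overlap. KO replicate 3, with 11840 Slurp1 counts beside 6280 and 6100, lay far below the other KO libraries. Clu was higher in KO relative to all 3 corneal genes, by 2.94-fold to 5.26-fold. The counts of Pax6 were not whole numbers, so reads had been divided between it and another gene.

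The genes whose profiles over the 6 libraries lay nearest to each of the 4 were taken from the 1913 other genes with a mean of at least 100 CPM, by the root mean square distance of log2 CPM after each gene was centred on its own mean. Nearest to Aldh3a1 were Fam83a (distance 0.077), Aqp5 (0.119) and Sorl1 (0.124), with log2 fold changes of -2.30, -2.17 and -2.45. Aqp5 encodes a water channel of corneal epithelium and secretory glands, and Sorl1 a sorting receptor of the endosome. Nearest to Tkt were Stk35 (0.070), Mxra7 (0.112) and Syt8 (0.129), all with log2 fold changes between -3.01 and -2.97. For Upk1b these were Paqr8 (0.074), 1600014C10Rik (0.097) and Cyp4a12b (0.102), and for Clu they were 2610528A11Rik (0.101), Rpn1 (0.108) and Hmgn2 (0.109). Within a distance of 0.2 there were 4 genes for Tkt, 15 for Aldh3a1, 31 for Upk1b and 120 for Clu. These distances describe 6 libraries in 2 groups and carry no test. They take in the difference between KO and WT, so near genes have similar log2 fold changes by construction.

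Aldh3a1 was next read against the other aldehyde dehydrogenases, enzymes that oxidize aldehydes to acids. Of 20 listed genes 18 could be tested, and 4 were higher, 6 lower and 8 did not pass, which is 55.6% called beside 62.0% of all tested genes. Their median log2 fold change was 0.050. None of the 20 came near the level of Aldh3a1. The most abundant was Aldh3b2, with 381 ± 26.9 TPM in WT and 338 ± 38.5 TPM in KO, which did not pass (log2 fold change 0.17, adjusted p = 0.258, edgeR). Aldh1a1, which makes retinoic acid, was the next in WT and fell by 4.81 on the log2 scale, from 213 ± 69.3 to 5.92 ± 2.71 TPM. Aldh1a3, with the same activity, rose by 1.08 (adjusted p = 4.53e-04, edgeR), and the mitochondrial Aldh2 fell by 1.27 (adjusted p = 8.53e-05, edgeR). Aldh1l2, a mitochondrial enzyme of folate metabolism, rose from 5, 71 and 11 counts to 800, 892 and 743. Within the Aldh3 group, Aldh3a2 (log2 fold change -0.29) and Aldh3b1 (-1.64) were also lower, and Aldh3b3 did not pass. The counts of Aldh1a1, Aldh3b1, Aldh3b2 and Aldh3b3 were not whole numbers in any library, so that reads had been shared with similar loci and these levels are uncertain.

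Aldh3a1 is a known target of the aryl hydrocarbon receptor, the xenobiotic sensor that pairs with ARNT. Of 7 tested genes of this pathway 3 were higher, 2 lower and 2 did not pass, so that 71.4% were called beside 62.0% of all tested genes, with a median log2 fold change of 0.14. Without WT replicate 1 or KO replicate 3, 1 gene was lower. Nqo1, a quinone reductase, rose from 60.8 ± 6.21 to 76.3 ± 4.22 TPM (log2 fold change 0.66, adjusted p = 0.0011, edgeR), while Tiparp and Ugt1a6a did not pass (edgeR, adjusted p = 0.550 and 0.722). Ugt1a6b was higher (log2 fold change 0.93) and shares exons with Ugt1a6a, so that its counts are uncertain. Cyp1b1 was lower, going from 17, 40 and 146 counts to 2, 3 and 3, so that in KO it lay at or under the floor of 3 counts. Ahr itself was higher (log2 fold change 0.62) and Arnt lower (-0.31).

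The pentose phosphate pathway, in which transketolase acts, makes NADPH in its oxidative branch and ribose phosphate in both. Of 10 tested genes besides Tkt 3 were higher, 3 lower and 4 did not pass, a share of 60.0% called that lies near the 62.0% over all tested genes, with a median log2 fold change of -0.093. Tkt thus fell by more than any of the 10. Its partner of the non-oxidative branch, transaldolase (Taldo1), had 532 ± 65.7 TPM in WT and 352 ± 23.4 TPM in KO and did not pass (log2 fold change -0.26, adjusted p = 0.112, edgeR). Glucose-6-phosphate dehydrogenase (G6pdx), the entry enzyme, had 329 ± 47.9 and 314 ± 8.59 TPM and did not pass (log2 fold change 0.27, adjusted p = 0.105, edgeR). Pgls and Pgd, the next 2 enzymes of the oxidative branch, were higher (log2 fold changes 0.25 and 0.56, adjusted p = 0.0344 and 0.0011, edgeR). Pgls thus passed narrowly, and its TPM was 163 ± 7.81 in WT and 153 ± 4.62 in KO. Under many other settings 2 genes of the list were higher in place of 3. The isomerase gene Rpia was lower (-0.94), as were H6pd (-1.46), the dehydrogenase of the endoplasmic reticulum, and Shpk (-1.29), a sedoheptulose kinase.

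Other crystallins were listed as well, both those of the lens and enzymes used as crystallins in some species. Among the 21 listed genes that the data hold, 11 could be tested, with 6 higher, 3 lower and 2 not passing. This was 81.8% called, against 62.0% over all tested genes, and the median log2 fold change was 0.68. Without WT replicate 3 or KO replicate 1, only 1 of 12 tested genes was lower and 6 were higher. Lens crystallins were scarce, and Cryba1, Cryba2, Crybb1, Crybb2, Cryga, Crygc and Crygd had at most 3 counts in every library. Cryab, a small heat shock protein made in many tissues, was more abundant, with 1734, 1137 and 2557 counts in the WT group against 576, 716 and 1144 in the KO group. It passed (log2 fold change -1.05, SE 0.323, adjusted p = 0.0203, edgeR) although the groups overlapped. Cryaa had 2 counts in each WT library and rose to 18, 11 and 21 counts. Of the enzymes, Cryzl1 and Asl were lower (log2 fold changes of -0.48 and -0.35), and Cryz, Ldhb, Ppia, Eno1 and Idh1 were higher. Ppia, or cyclophilin A, rose from 2497 ± 134 to 3156 ± 298 TPM (log2 fold change 0.68, adjusted p = 0.0011, edgeR), the glycolytic enzyme Eno1 from 494 ± 91.4 to 904 ± 43.7 TPM (1.22, adjusted p = 1.37e-04), and the NADP-dependent Idh1 from 93.5 ± 13.1 to 177 ± 33.0 TPM (1.26, adjusted p = 2.80e-04). These 3 were the most abundant enzymes of the list, and all moved against Aldh3a1 and Tkt. The counts of Eno1 were whole in 1 of 6 libraries, so its level is uncertain.

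UPK1B belongs to the tetraspanins and works with uroplakins in the bladder. Of 26 tested genes of these families 14 were higher, 8 lower and 4 did not pass, which is 84.6% called where 62.0% of all tested genes were (31.8% higher and 30.2% lower), with a median log2 fold change of 0.53. The most abundant was Upk3bl, a uroplakin 3B-like gene, read 43535, 36605 and 46376 times in WT and 9160, 11082 and 14144 times in KO. Its level of 4245 ± 466 TPM in WT was close to that of Tkt, and it fell to 979 ± 197 TPM (log2 fold change -1.77, SE 0.177, adjusted p = 6.18e-05, edgeR). Its libraries stood in the same order as those of Upk1b within each group. Upk3b fell from 31.6 ± 14.5 to 3.14 ± 1.08 TPM (log2 fold change -2.97, adjusted p = 1.70e-04, edgeR), while Upk1a, the usual relative of UPK1B in urothelium, had at most 13 counts in any library and Upk2 at most 30, and neither passed.

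Among the other tetraspanins, Cd82, a suppressor of cell migration, fell from 433 ± 44.1 to 80.1 ± 4.94 TPM (log2 fold change -2.09, adjusted p = 2.07e-06, edgeR), and Cd151, a partner of laminin-binding integrins, changed by -0.31. Cd9, the most abundant tetraspanin after Upk1b, was higher, with 738 ± 32.4 TPM in WT and 814 ± 72.8 TPM in KO (log2 fold change 0.48, adjusted p = 0.0044, edgeR), so that it stood above Upk1b in KO. Cd63, a tetraspanin of lysosomes and secretory vesicles, rose from 11, 17 and 24 counts to 491, 567 and 554 (log2 fold change 5.05, SE 0.224, adjusted p = 1.24e-06, edgeR).

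Clusterin was compared with other secreted chaperones and with receptors that take it up. Of 9 listed genes 5 could be tested, with 2 higher, 2 lower and 1 not passing, or 80.0% called beside 62.0% over all tested genes, and a median log2 fold change of -0.098. Without WT replicate 2 or KO replicate 2, 1 gene was lower. Apoe, an apolipoprotein like clusterin, rose from 1213, 1593 and 2103 counts to 6053, 4990 and 4549 (log2 fold change 1.77, SE 0.211, adjusted p = 1.57e-04, edgeR). The receptor gene Vldlr was lower (log2 fold change -0.57). Lrp8, a receptor gene of the brain and other tissues, was higher (1.65), going from 45, 146 and 53 counts to 240, 229 and 241, and Lrp1 did not pass (adjusted p = 0.638, edgeR). The chaperone genes Hp and A2m had at most 8 counts in any library, and the receptor gene Lrp2 at most 2.

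**Figure D5:**
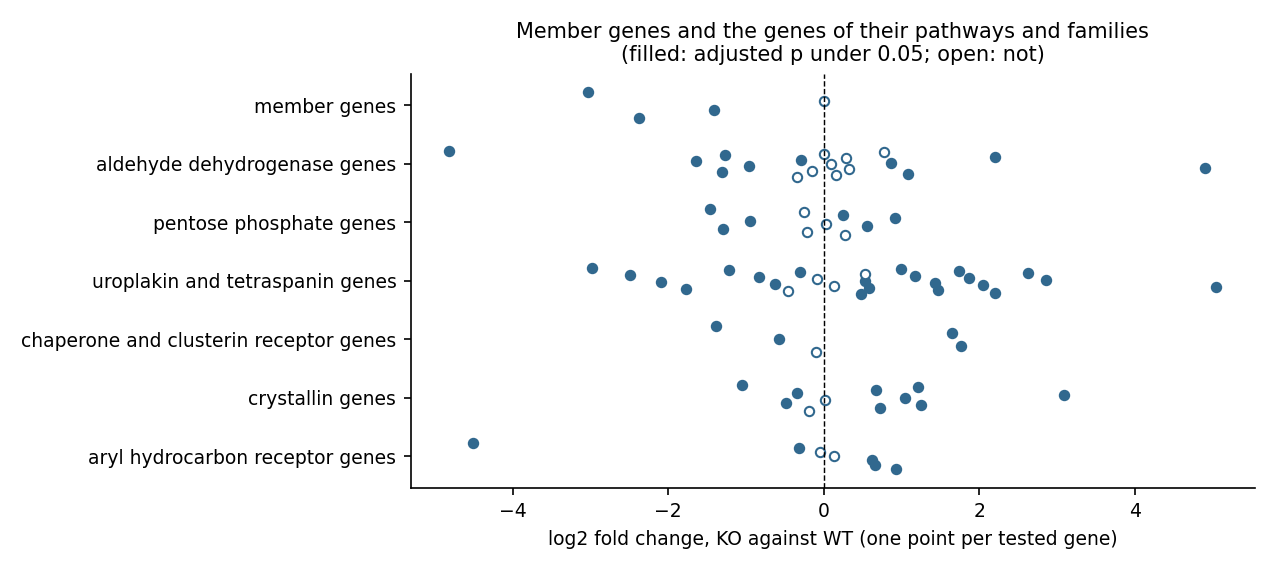
The log2 fold change (KO against WT, horizontal axis) of the 4 genes and of each tested gene of the 6 lists, with 1 point per gene, filled where the adjusted p was under 0.05 and open otherwise. Members of every list lie on both sides of 0, and 3 of the 4 genes in the top row lie between -3.04 and -1.41.

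In the annotation of the table, Aldh3a1 and Clu shared 1 Gene Ontology process term, positive regulation of cell proliferation, and the other 5 pairs shared 0. Of the component terms, Aldh3a1 and Clu shared 3 (cytoplasm, cytosol and endoplasmic reticulum), and Aldh3a1 and Upk1b, Tkt and Clu, and Upk1b and Clu shared 1 each. Aldh3a1 and Tkt shared 3 broad KEGG pathways, among them metabolic pathways, and the other 5 pairs shared 0.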

How the data were processed

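Per the methods and the submitters' processing notes, the authors filtered single-end reads with SOAPnuke, aligned them with Bowtie2 2.2.5 and estimated levels with RSEM 1.2.12. The notes list mm9, whereas the table's chromosome accessions are those of GRCm38. The deposited table gives estimated counts (none of them normalized), FPKM and TPM (per effective length, TPM summing to 1000000 per library), and also the authors' averages and their DESeq2 fold changes and p-values, which were not used. Each of the 18 columns of library values was tied to a sample by its title.

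Groups came from the titles. Estimated counts were rounded and fitted over all 13305 genes that passed filterByExpr with edgeR 4.0.16 in R 4.3.3 (TMM, glmQLFit, glmQLFTest, genotype as the only term, Benjamini-Hochberg adjustment, threshold 0.05). SE is the absolute log2 fold change over the square root of F. Totals of 20158404 to 20880347 counts put the floor of 3 counts between 0.137 and 0.152 CPM. Shares and ratios were compared by exact permutation (scipy 1.17.1). The method was tested on simulated data with 200 changed genes. In the real data 8253 genes were called, so the simulation does not show how scaling behaves under so wide a change. Alternatives were DESeq2 1.42.0, RLE factors, library totals, TMM without the 20 most abundant genes, a length correction, 2 count filters, robust dispersion, limma 3.58.1 on log2(FPKM + 1) and log2(FPKM + 0.1), a replicate block and leaving out each library. Motifs were counted in RefSeq promoters. Plots used matplotlib 3.10.9.

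The 4 genes and all lists were chosen with earlier results of these data known. Named from each list were up to 4 genes of highest mean TPM and the 2 with the largest called change, and from each profile search the 3 nearest genes. Further list genes were named after their values were seen. The values of 1 list gene that this rule selects are not reported here. Tktl2, Upk3a, Tspan11, Crygb, Cryge, Crygf, Crygs, Cyp1a1, Cyp1a2 and the marker Cdh5 were not analysed here. Whether counting used strand is not given in the sources used here.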

Additional observations from a re-analysis of the deposited data

How the results depend on the processing

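The log2 fold changes of Aldh3a1, Tkt and Upk1b kept their direction and stayed past the threshold under all 17 alternative fits, with ranges of -2.54 to -2.32, -3.13 to -2.91 and -1.60 to -1.26. Clu passed in 0 of the 17 (adjusted p between 0.280 and 0.975), and its sign turned to -0.084 with library totals alone, -0.10 with the length correction, -0.012 without a filter, and -0.079 on both limma scales, as well as within a range of -0.12 to 0.20 when single libraries were left out. Counts of called list genes, both directions together, stayed within 1.5 times under these fits, and those over the whole table lay between 7100 and 8714. By direction some did not. Lower crystallin genes went from 3 to 1 without WT replicate 3 or KO replicate 1. Lower aryl hydrocarbon receptor genes went from 2 to 1 without WT replicate 1 or KO replicate 3, with the length correction and with a mean count of at least 50. Lower chaperone and receptor genes went from 2 to 1 without WT replicate 2 or KO replicate 2 and with the length correction, and higher ones from 2 to 4 without a filter. With the length correction, pentose phosphate genes went from 3 higher and 3 lower to 2 and 5. Higher ones also numbered 2 with library totals alone, without a filter, on both limma scales and with the replicate block. The same held without WT replicate 1 or 2, and without any single KO library. The labels do not say whether the replicate numbers pair the samples, and no pairing was seen. Deviations of same-numbered libraries correlated at 0.0244, 0.0036 and 0.0616, and not every library correlated best with its own number. With so few libraries this check cannot decide the question. With the replicate number as a block 8083 genes were called, beside 8253, and 3 of the 4 genes. The log2 share of counts, KO against WT, was -2.45 for the 4 genes summed, -2.35 without keratins in the total and -2.64 as a share of TPM. For Aldh3a1 it was -2.47, -2.37 and -2.72, and for Tkt -3.13 and, by TPM, -3.38. The cause of these moves was not tested.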
